A study of Mus musculus with 98 samples.

Results

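The platelet-derived growth factor (PDGF) family was followed through the thymic stroma by its 4 ligand genes, *Pdgfa*, *Pdgfb*, *Pdgfc* and *Pdgfd*, and its 2 receptor genes, *Pdgfra* and *Pdgfrb*. These 6 genes were selected by name under a rule that uses no measured value, though with earlier results of these data known, and each of them was found among the 22231 genes of the single-cell counts of an age series, the 20760 genes of the single-cell counts of newborn mice and the 39179 entries of the bulk counts of sorted populations. On the mouse build GRCm38, *Pdgfa* (ENSMUSG00000025856) lies on the minus strand of chromosome 5 from 138976014 to 138997370, *Pdgfb* (ENSMUSG00000000489) on the minus strand of chromosome 15 from 79995874 to 80014977, *Pdgfc* (ENSMUSG00000028019) on the plus strand of chromosome 3 from 81036416 to 81214040 and *Pdgfd* (ENSMUSG00000032006) on the plus strand of chromosome 9 from 6168584 to 6378850. *Pdgfra* (ENSMUSG00000029231) lies on the plus strand of chromosome 5 from 75152292 to 75198215, and *Pdgfrb* (ENSMUSG00000024620) on chromosome 18. Exons of *Pdgfa*, *Pdgfc* and *Pdgfra* overlap those of antisense genes by 813, 147 and up to 456 bases, and as the strand used for counting is not stated, bulk reads from these stretches cannot be assigned to either gene with certainty.

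PDGFs are secreted dimers that bind and pair receptor tyrosine kinases at the cell surface. PDGF-A and PDGF-C act mainly on the receptor encoded by *Pdgfra*, PDGF-D acts mainly on the one encoded by *Pdgfrb*, and PDGF-B binds both. PDGF-C and PDGF-D are released in a latent form that proteases such as the plasminogen activators must trim. In most organs endothelial PDGF-B holds *Pdgfrb*-expressing pericytes to vessels, and *Pdgfra* marks fibroblasts and other mesenchyme, including the neural crest-derived mesenchyme that surrounds the early thymus.

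Samples of 3 kinds were compared, all from mice. In the age series, nonepithelial thymic stroma (NETS; Ter119-CD45-EpCAM- cells) of wild-type (WT) C57BL/6 mice was captured as single cells in 5 age groups. A single library each, from thymi pooled over a pair of litters, stands for E12.5 and for E13.5 (embryonic days), and 2 libraries each stand for E16.5, birth (P0) and postnatal week 4 (W4). In the newborn set, Ter119-CD45- cells, which include thymic epithelial cells (TEC), were captured after fixation from 3 mice labelled *Tbx1*+/- *Crkl*+/- and 3 WT littermates. The labelled mice carry 1 LacZ allele of *Tbx1* and 1 germline null allele of *Crkl* in all cells, the latter made with Meox2-Cre. The bulk set holds 84 libraries of WT mice, 6 for each of 14 groups: CD31+ endothelium, Ly51+gp38- cells (pericytes and vascular smooth muscle), gp38+CD26+ cells (capsular fibroblasts), gp38+CD26- cells (enriched in the medulla), cortical TEC (cTEC) and medullary TEC (mTEC), each at P0 and 4 weeks, and mTEChi and mTEClo at 4 weeks. The authors describe a depletion of CD45+ cells with magnetic beads before staining for adult mice only. If it was used at 4 weeks, a change from P0 to 4 weeks cannot be told apart from this handling. Whether same-numbered bulk libraries share mice is not given in the sources used here, so the p-values measure only the spread between these samples.

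The age series holds 36208 cells in 19 deposited subtypes, with 28583048 to 93040640 unique molecular identifiers (UMIs, 1 per captured transcript) per library. The newborn set holds 21451 cells, with 4978011 to 31418527 UMIs per library and a median of 2391 to 2551 UMIs per cell in the labelled libraries against 2577, 3631 and 4686 in WT. No pair of libraries shared more than 14 cell barcodes. Bulk libraries held 25702 to 15852166 counts, and the smallest, replicate 2 of gp38+CD26+ at 4 weeks, was left out of the levels and fits. *Tbx1* was counted 0, 0 and 8 times in the labelled newborn libraries and 13, 6 and 19 times in WT, which is 0, 0 and 0.872 counts per 1000000 counts (CPM) against 1.79, 0.441 and 0.605, while *Crkl* stood at 24.1, 23.6 and 26.9 CPM against 23.0, 25.1 and 18.4. The groups thus overlapped for *Tbx1* and *Crkl* was not lower in the labelled libraries, but a 3′ tag can lie outside a deleted part and then checks nothing. The names of the subtypes were checked against lists of 4 markers each: endothelial markers were highest in the 3 endothelial subtypes, smooth muscle markers in vascular smooth muscle (VSM, 14160 CPM against 3306 in pericytes, Pc), and fibroblast markers in the capsular fibroblasts. The pericyte list did not separate Pc (4904 CPM) from VSM (6441 CPM).

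Throughout, a single-cell level is the CPM of a gene, from UMIs summed over all cells of 1 subtype in 1 library with at least 5 such cells, and its error is the SD over libraries. In the age series this SD, and any overlap of subtypes, pools libraries of different ages and so includes change with age. Where a subtype or class is said to supply or hold a share of a gene's UMIs, that share and its share of the cells are means of the library percentages. The subtypes were made by clustering the same counts, so the order of levels between subtypes is a description and was not tested.

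*Pdgfa*, whose product acts on *Pdgfra*-bearing cells, was highest in the cells around vessels. Over the 8 libraries of the age series its level was 368 ± 114 CPM in VSM (lowest 229, median 357, highest 549), 283 ± 145 in neural crest cells (NC; 56.8 in the lowest library) and 235 ± 118 in Pc (124.8, 190 and 438). These 3 subtypes overlapped with one another when the libraries of all ages were pooled. Within P0 and within W4, each VSM library lay above each Pc library. Mesothelium (Mes) followed with 83.8 ± 27.6 CPM (n = 7), and among the fibroblasts the medullary subtype MedFb2a (79.4 ± 25.5) and the capsular subtype CapFb2a (74 ± 49.7) stood above CapFb1c, the lowest subtype with 16.1 CPM together with capillary endothelium (EnC). VSM supplied 42.2% of all *Pdgfa* UMIs at P0 and 36.4% at W4, from 10.2% and 10.9% of the cells.

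**Figure D1:**
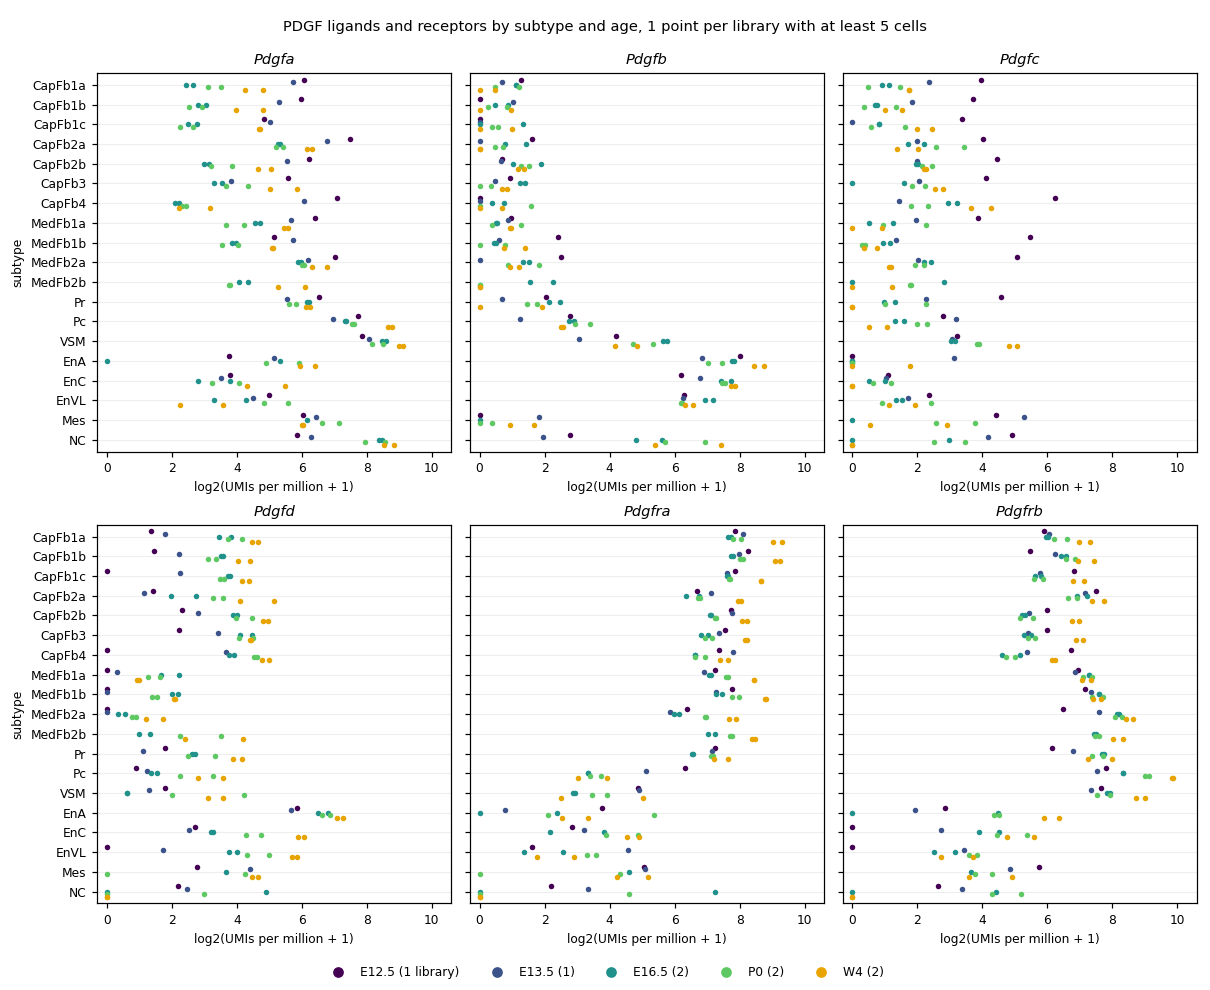
Levels of the 6 genes in the age series, as log2(CPM + 1), for each subtype and library with at least 5 cells, coloured by age. *Pdgfa* is highest in VSM, NC and Pc, and *Pdgfrb* in Pc. *Pdgfb* is highest in the endothelial subtypes (EnA, EnC, EnVL), *Pdgfd* in EnA, and *Pdgfra* in the capsular (CapFb) and medullary (MedFb) fibroblasts.

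In newborn mice, where TEC were captured too, the epithelium held most of the *Pdgfa* transcripts. Mature cortical TEC (McTEC) had 309, 340 and 382 CPM in the 3 WT libraries, perinatal cortical TEC (PcTEC) 252, 280 and 339, and intertypical TEC (ItTEC) 183, 294 and 308. VSM had 349, 434 and 391 CPM, so that VSM and McTEC overlapped. NC had 311 ± 120.5 CPM, from 30 cells in these 3 libraries. Mature medullary TEC (MmTEC) were lower, at 136.03 ± 39.7 CPM, and fibroblasts ranged from 8.37 to 108.1. All TEC together supplied 59.6% of the *Pdgfa* UMIs of the WT libraries from 37.8% of the cells. Cells with at least 2000 UMIs were thinned at random to 2000, and shallower cells were left out, which kept 483 of 538 VSM, 710 of 955 McTEC and 130 of 208 thymocytes. Among the cells kept, 52.2% of VSM and 48.6% of McTEC had at least 1 *Pdgfa* UMI, against 12.3% of the thymocytes (Thy). Thy are haematopoietic cells that serve here as a rough upper measure of free RNA. Over all cells before thinning the median depth was 3939 UMIs per cell in VSM, 2819 in McTEC and 2510 in Thy, and the shares were 69.5%, 58.6% and 13.46%.

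**Figure D2:**
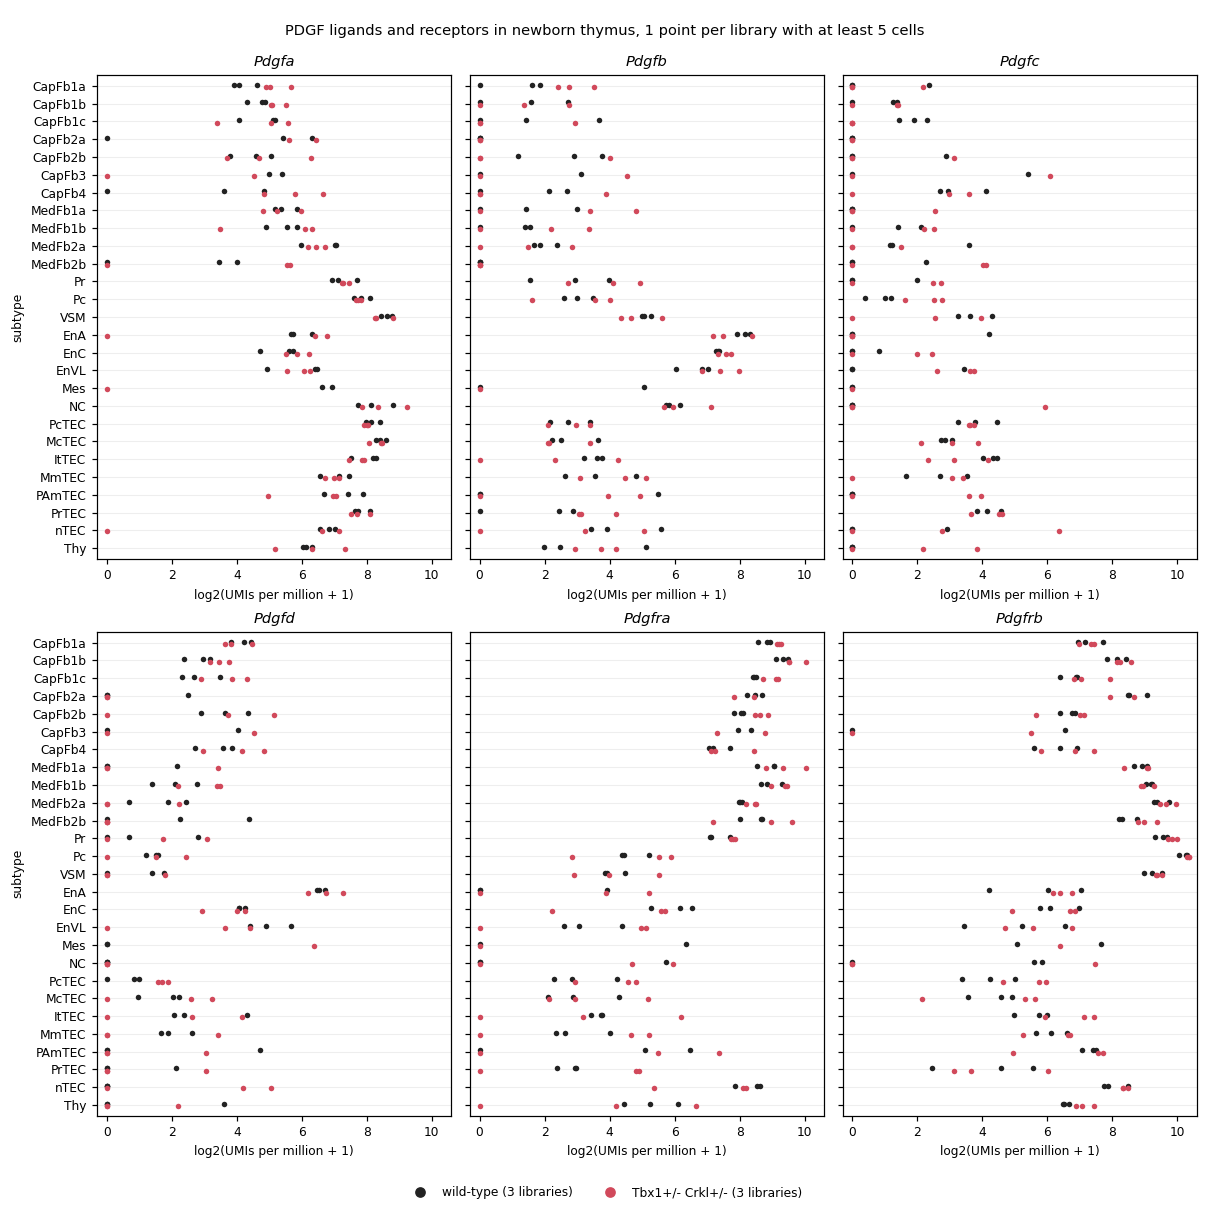
Levels of the 6 genes in the newborn set, as log2(CPM + 1), for each subtype and library with at least 5 cells, WT in black and libraries labelled Tbx1+/- Crkl+/- in red. *Pdgfa* is high in VSM, NC, Pc and the TEC subtypes McTEC, PcTEC and ItTEC, and *Pdgfra* in fibroblasts and neural TEC (nTEC). The colours overlap in most rows.

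*Pdgfb*, the ligand that binds both receptors, belonged to the endothelium in both single-cell sets. Arterial endothelium (EnA) had 237 ± 107.05 CPM (114.5, 222 and 431), EnC 171 ± 54.7 and venous-lymphatic endothelium (EnVL) 92.5 ± 26.5, and their ranges overlapped in this order. NC (58.7 ± 58.6) and VSM (29.6 ± 16.4) followed, Pc had 5.64 ± 2.27, and fibroblast subtypes lay between 0.410 and 1.71 CPM. In the newborn WT libraries EnA had 242, 285 and 318 CPM and EnC 163.4, 159 and 154.6, so these subtypes did not overlap there. Endothelium supplied 54.6% of the newborn *Pdgfb* UMIs from 7.62% of the cells. On cells thinned to 2000 UMIs, 44.3% of EnA, 26.4% of EnC and 0 of 130 Thy had a *Pdgfb* UMI.

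*Pdgfc*, which encodes a latent ligand of the *Pdgfra* product, had low and scattered levels. In the age series VSM had 14.8 ± 9.93 CPM and Mes 11.9. The mean of 16 ± 24.3 CPM in the capsular subtype CapFb4 rested on 74.6 CPM from 6 cells at E12.5, beside 1.68 to 18.4 in the other libraries, and with at least 20 cells per library the highest subtype was NC. In newborn WT mice ItTEC had 18.9, 21.0 and 15.2 CPM, proliferating TEC (PrTEC) 17.7 ± 4.98 and PcTEC 14.1 ± 6.18, while the 3 Thy libraries held no *Pdgfc* UMI. TEC supplied 73.9% of the *Pdgfc* UMIs.

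*Pdgfd*, the latent ligand of the *Pdgfrb* product, was shared between endothelium and the capsule. EnA had 100.6 ± 35.5 CPM, EnC 24.5 ± 24.4 and EnVL 23.4 ± 21.1. Capsular fibroblasts had means of 9.91 (CapFb1b) to 17.6 CPM (CapFb4), whereas the medullary subtypes had 0.741 (MedFb2a) to 6.37 CPM (MedFb2b). The order of EnC and EnVL to the capsule changed with age. At E13.5 EnC (4.72) and EnVL (2.29) lay below CapFb3 (9.73). At E16.5 EnC had 8.29 and 8.52 CPM and CapFb3 21.1 and 16.1, and at W4 EnC had 58 and 66.3 and CapFb3 20.2 and 20.6. In newborn WT libraries a mean of 30.8% of the *Pdgfd* UMIs came from endothelium and of 37.6% from capsular fibroblasts, and EnA had 86.6, 104 and 91.8 CPM.

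*Pdgfra* was a gene of all fibroblast subtypes. CapFb1b (332 ± 150.9 CPM) and CapFb1a (321 ± 166) were highest, the other fibroblast subtypes ranged down to 120 ± 68.1 in MedFb2a, and all overlapped with their neighbours. Proliferating cells (Pr) had 138.9 CPM, while NC, Mes, Pc (21.7 ± 24.5), VSM (16.4 ± 11.4) and endothelium had 7.53 to 23.3. In newborn WT libraries CapFb1b had 641, 718 and 557 CPM, whereas Pc (25.4) and VSM (16.3) had lower means than Thy (41.5). The libraries of Pc (19.7 to 36.1) and Thy (20.7 to 67.3) overlapped, and PcTEC (9.27) and McTEC (9.31) were lower still. Among the epithelial subtypes, nTEC alone had levels of the fibroblast range, with 233, 398 and 374 CPM against 5.85 to 40.5 in the other TEC subtypes measured in 3 libraries. TlTEC and sTEC, with 9 and 8 cells in 1 library each, held no *Pdgfra* UMI. In the same 3 nTEC libraries the 4 fibroblast markers summed to 5076, 5256 and 6425 CPM, against 588, 369 and 438 in PcTEC, and the thymic epithelial markers to 1770, 1350 and 1262. Whether fibroblast transcripts account for *Pdgfra* in nTEC was not tested.

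*Pdgfrb* was highest in pericytes. In the age series Pc had 497 ± 294 CPM (183, 416 and 936), VSM 274 ± 124.5, MedFb2a 273 ± 95.3, MedFb1b 178 ± 22.3 and Pr 172.7. Capsular subtypes had 50.3 (CapFb4) to 148.05 CPM (CapFb2a), and endothelium 8.06 to 26.4. In the newborn WT libraries Pc had 1236, 1251 and 1064 CPM, above every library of VSM (614 ± 116) and MedFb2a (712 ± 126). At P0 the age series gave 509 and 563 CPM for Pc. That set was captured without fixation, and the 2 sets are not compared. After thinning, 86.9% of Pc and 15.4% of Thy had a *Pdgfrb* UMI, with median depths of 3358 and 2510 UMIs per cell and unthinned shares of 94.3% and 12.98%. *Pdgfrb* stood at 93.6 ± 6.5 CPM in Thy, above ItTEC (48.9) and PcTEC (19.5 ± 10.9), so these TEC held less *Pdgfrb* than the cells that serve as a measure of free RNA, while nTEC (268) and PAmTEC (160.2) held more.

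UMIs of a ligand gene and a receptor gene were also found in the same cells. In thinned WT newborn cells, UMIs of *Pdgfa* and *Pdgfrb* were found together in 30.6% of VSM and 30.2% of Pc, 13.9% of MedFb2a and 1.54% of Thy. PDGF-A acts mainly on the *Pdgfra* product, so this pair is not a ligand with its main receptor. Shares expected from each gene alone are not given. Both receptors were found together in 36.1% of MedFb1b, 33.6% of MedFb1a and 23.3% of CapFb1b, but in 3.26% of Pc and 0.769% of Thy. These shares are limited by depth on one side, and free RNA or cells captured together can add to them on the other.

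The balance of the receptors, as the log2 ratio of *Pdgfra* to *Pdgfrb* UMIs in libraries with at least 10 of each, ordered the mesenchyme. It was −4.82 ± 1.87 in Pc and −4.30 ± 1.39 in VSM, below 0 in 8 of 8 libraries each, and −1.27 ± 0.75 in MedFb2a, also below 0 in 8 of 8. CapFb2a (−0.13 ± 0.51), MedFb2b (0.04 ± 0.34, n = 6), MedFb1a (0.41 ± 0.58) and MedFb1b (0.42 ± 0.62) lay on both sides of 0. CapFb3, CapFb1b, CapFb1c, CapFb2b and CapFb1a had means of 1.53 to 1.83, above 0 in 8 of 8 libraries, and CapFb4 in 7 of 7. In Pc the ratio was −1.50 at E12.5 and −2.44 at E13.5, −5.16 and −5.17 at E16.5, −5.75 and −5.52 at P0, and −7.03 and −6.02 at W4. The values at E12.5 and E13.5 rest on 65 and 147 cells labelled Pc, in 1 library each. By flow cytometry the authors found no Ly51+gp38- pericytes earlier than E16.5, so the identity of these early cells is uncertain. The newborn set gave the same order at its ends, with −5.22 ± 0.62 in Pc (n = 5) and 1.74 ± 0.38 in CapFb1a (n = 6).

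**Figure D3:**
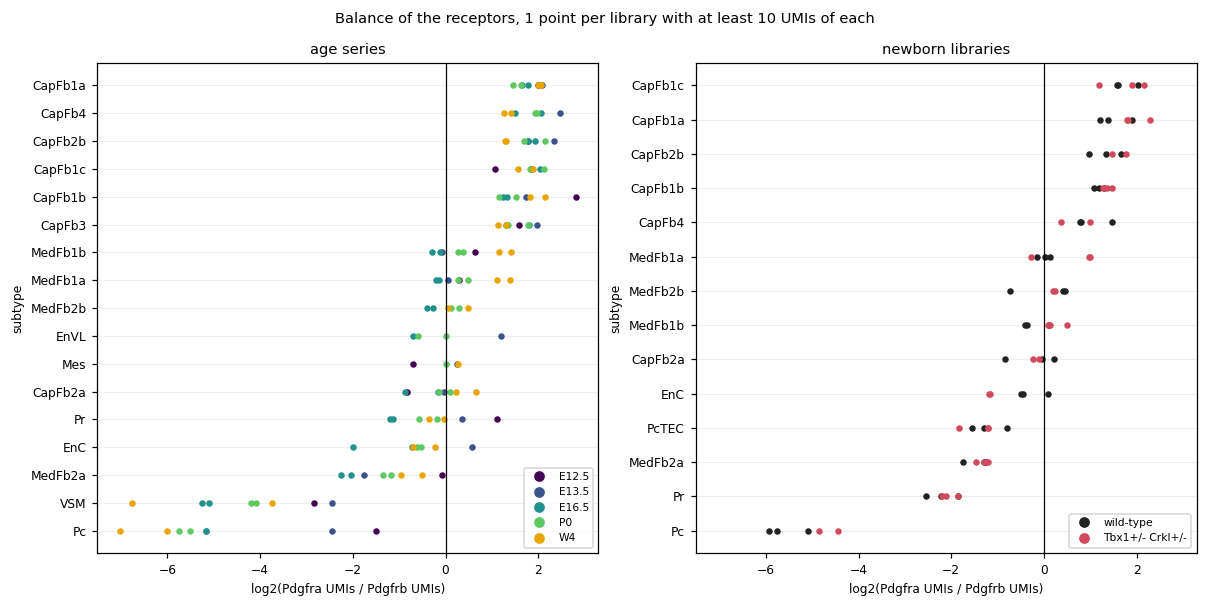
Log2 ratio of *Pdgfra* to *Pdgfrb* UMIs by subtype, 1 point per library with at least 10 UMIs of each gene, for the age series coloured by age and the newborn set coloured by label. Pc and VSM lie far to the left of the line at 0, MedFb2a is left of it as well, the other medullary subtypes lie around it and the capsular subtypes CapFb1a, CapFb1b and CapFb1c to its right.

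The sorted populations measured the same genes with libraries as replicates and allowed tests between populations. Levels are CPM, or CPM per kilobase of exon (CPM per kb) where genes are compared, and fewer cells of a type in a sort cannot be told apart from less RNA per cell. By edgeR's quasi-likelihood test with Benjamini-Hochberg adjustment over 20417 genes, 36 of 66 pairs of a member and a population comparison passed an adjusted p of 0.05 (18 higher and 18 lower), where 24% of all gene and comparison pairs did (9.75% higher and 14.2% lower). The marker sums followed the sorts. The endothelial list was highest in CD31+ (medians 5252 CPM at P0 and 5430 at 4 weeks), the pericyte list in Ly51+gp38- (35523 and 94749) and the fibroblast list, which contains the gp38 gene *Pdpn* used in the sort, in gp38+CD26+ (46667 and 49803).

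*Pdgfrb* in Ly51+gp38- had 847, 1131 and 1390 CPM as lowest, median and highest library at P0, and 531, 773 and 1044 at 4 weeks. In gp38+CD26- it had 423, 460 and 497 CPM at P0, and in gp38+CD26+ 6.27, 126 and 176. All Ly51+gp38- libraries thus lay above all gp38+ libraries at each age. The fitted log2 difference of Ly51+gp38- from the mean of both gp38+ populations was 2.13 ± 0.69 (SE) at P0 (adjusted p = 0.0277 with edgeR, 0.0520 with DESeq2) and 1.81 ± 0.71 at 4 weeks (edgeR adjusted p = 0.0578), so this call was close to the threshold. CD31+ lay far below the other nonepithelial populations, by −5.71 at P0 and −5.21 at 4 weeks on the log2 scale, both past the threshold.

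*Pdgfra* showed the opposite sort. Its level was 947, 1130 and 1295 CPM in gp38+CD26- and 724, 1064 and 1405 in gp38+CD26+ at P0, against 34, 91 and 190.8 in Ly51+gp38-, with no overlap. Ly51+gp38- lay below both gp38+ populations by −3.55 ± 1.09 at P0 (adjusted p = 0.0186 with edgeR, 0.0506 with DESeq2) and −4.06 ± 1.12 at 4 weeks (edgeR adjusted p = 0.0051). The gp38+ populations were not told apart from each other (log2 difference of CD26+ from CD26- 0.00 at P0 and −0.51 at 4 weeks). In CD31+ 5 of 6 libraries at each age had no count. Per length, the receptors stood at 203 (*Pdgfrb*) and 10.2 CPM per kb (*Pdgfra*) in Ly51+gp38- at P0, at 83.7 and 112.9 in gp38+CD26-, and at 21.5 and 105 in gp38+CD26+. The log2 ratio of *Pdgfra* to *Pdgfrb* per kb was −4.61 ± 1.16, 0.43 ± 0.22 and 2.77 ± 1.63 in this order.

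**Figure D4:**
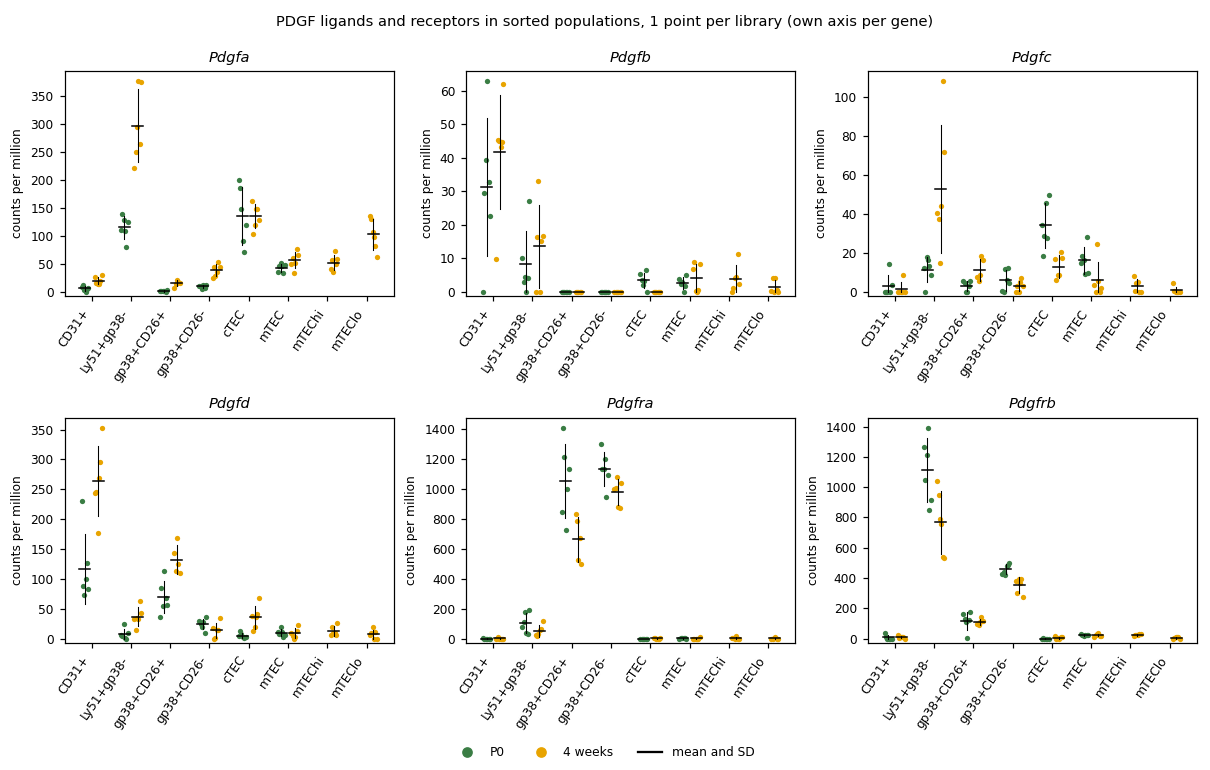
Levels of the 6 genes in the sorted populations in CPM, 1 point per library, P0 in green and 4 weeks in orange, with the mean and SD in black and an axis of its own for each gene. *Pdgfa* and *Pdgfrb* are high in Ly51+gp38-, *Pdgfb* and *Pdgfd* in CD31+, and *Pdgfra* in both gp38+ populations.

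Of the ligands, *Pdgfa* was high in Ly51+gp38- and in TEC. It had 79.6, 118 and 139.2 CPM in Ly51+gp38- at P0, against 5.82, 10.3 and 12.8 in gp38+CD26- and 0.118, 1.38 and 3.13 in gp38+CD26+. Ly51+gp38- lay above both gp38+ populations by 4.78 ± 0.30 at P0 (edgeR adjusted p = 1.1e-21) and 3.50 ± 0.30 at 4 weeks (9.5e-16). Between the gp38+ populations, gp38+CD26+ lay below gp38+CD26- by −2.64 at P0 (edgeR adjusted p = 8.6e-07) and −1.29 at 4 weeks (0.018), the latter call being lost without replicate 1 of gp38+CD26+ at 4 weeks (−1.13, 0.069). cTEC had 71.2, 134.2 and 201 CPM at P0 and lay above mTEC by 1.54 (edgeR adjusted p = 3.6e-04) and, at 4 weeks, by 1.08 (0.0107). Per kb, cTEC had 43.7 CPM per kb at P0 and 43.4 at 4 weeks, beside 36.9 and 95.3 in Ly51+gp38-.

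*Pdgfb* was not counted in any gp38+ library kept. Its level in CD31+ was 0.0821, 31.1 and 62.8 CPM at P0 and 9.86, 44.8 and 61.8 at 4 weeks. The group of gp38+CD26+ libraries at P0 held 0 *Pdgfb* counts of 66656690, which allows up to 0.0450 CPM, so that CD31+ was at least 692-fold higher there, and at 4 weeks at least 937-fold. Ly51+gp38- reached 27.2 CPM at P0 and 33 at 4 weeks, with 1 library at 0 at each age.

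*Pdgfd* was the ligand with the highest CD31+ level per length in bulk, 37 CPM per kb at P0 and 83.6 at 4 weeks. *Pdgfb* had 7.49 and 10.0 there. In the age series the order was the reverse, with a higher mean *Pdgfb* than *Pdgfd* level in EnA, EnC and EnVL. Those levels are CPM and not per length, and the difference between bulk and single cells was not tested. *Pdgfd* had 72.3, 94.1 and 230.3 CPM in CD31+ at P0. For *Pdgfd*, CD31+ lay above the other nonepithelial populations by 2.27 ± 0.55 at P0 (edgeR adjusted p = 8.5e-04), and by 2.57 ± 0.56 at 4 weeks (2.0e-04). Between the gp38+ populations, the capsular gp38+CD26+ sort had 110, 125.2 and 169 CPM at 4 weeks and gp38+CD26- 0.0643, 14 and 34.7, with no overlap and a log2 difference of 3.36 ± 0.83 (edgeR adjusted p = 0.0052). At P0 the difference was 1.60 (adjusted p = 0.24). *Pdgfc* passed the threshold in 1 of 11 comparisons, with lower levels in nonepithelial populations than in TEC at P0 (−2.14, edgeR adjusted p = 0.028).

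From P0 to W4 members of the family rose more often than they fell in the single-cell data. In the 11 subtypes with at least 20 cells in every library, 57 pairs of a member and a subtype passed the filter on low counts and 29 passed the test, 27 higher and 2 lower at W4, where 25.1% of all gene and subtype pairs passed (12.3% higher and 12.8% lower). P0 and W4 have 2 libraries each, and the spread comes from the 6 libraries at E16.5, P0 and W4, since E12.5 and E13.5 have 1 each. Over all 5 ages, 52 of 57 pairs differed, beside 56.7% of all pairs.

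*Pdgfra* rose in each of the 6 fibroblast subtypes tested. CapFb1a had 223 and 263 CPM at P0 and 638 and 525.7 at W4 (log2 change 1.33 ± 0.12, edgeR adjusted p = 8.3e-07), and CapFb1b 273 and 257 at P0 and 602 and 540 at W4 (1.09 ± 0.08, 3.2e-07). The smallest rise was that of MedFb1a with 0.74 ± 0.10 (edgeR adjusted p = 1.2e-05). In Pc the change was −0.31 (adjusted p = 0.44), from 9.43 and 12.3 to 7.18 and 14.1 CPM. The subtypes CapFb1c, CapFb4, MedFb1b, MedFb2a and MedFb2b, which were too few at the earliest ages, were tested in a fit of E16.5, P0 and W4 alone that was chosen after seeing the data, and *Pdgfra* rose in each, by 0.72 to 0.96.

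*Pdgfrb* rose in 7 of 11 subtypes, in Pc, VSM and the 5 capsular subtypes tested. Pc had 509 and 563 CPM at P0 and 936 and 913 at W4 (0.60 ± 0.09, edgeR adjusted p = 3.7e-04), and VSM 184.2 and 242 at P0 and 512 and 421 at W4 (1.07 ± 0.15, 0.0023). In CapFb2b the level went from 45.9 and 35.1 to 123.6 and 108.4 CPM (1.60 ± 0.14, edgeR adjusted p = 6.3e-06), the largest rise beside that of CapFb3 (1.61 ± 0.15). The medullary subtypes MedFb1a (−0.13, adjusted p = 0.50) and MedFb1b (−0.06, 0.66 in the added fit) did not pass, but MedFb2a (0.32, edgeR adjusted p = 0.0132) and MedFb2b (0.64, 0.0035) rose in the added fit, in which 9 of 11 fibroblast subtypes were higher at W4. The calls of CapFb1b (0.44) and CapFb2a (0.80) were lost when 1 library was left out: for CapFb1b without replicate 1 of P0 (0.29, adjusted p = 0.0527) or of W4 (0.20, 0.273), and for CapFb2a without replicate 1 of W4 (0.67, 0.0546).

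*Pdgfa* rose in 8 of 11 subtypes and fell in 1. Pc had 187.02 and 193 CPM at P0 and 403 and 438 at W4 (0.95 ± 0.09, edgeR adjusted p = 1.1e-05), and VSM 286 and 357 at P0 and 549 and 513 at W4 (0.66 ± 0.12, 0.0071). Among fibroblasts, where levels were low, CapFb1b had 6.59 and 4.75 CPM at P0 and 14.7 and 26.9 at W4 (1.92 ± 0.28, edgeR adjusted p = 1.4e-04). The level of CapFb1b at W4 lay below the 62.4 CPM of the E12.5 library, which holds 45 cells of this subtype. Its level was low from E16.5 to P0 and higher again at W4, while the high start rests on that 1 library. CapFb4 went from 134.2 CPM at E12.5, which rests on 9 UMIs in 6 cells, and 65.4 at E13.5 (56 cells) to 3.67 and 8.05 at W4. In EnVL it fell from 47.1 and 27.5 to 3.75 and 10.9 CPM (−2.48 ± 0.52, edgeR adjusted p = 0.0081), beside a fibroblast marker sum of 1285 and 357 CPM at P0 and 218 and 263 at W4, whose part was not tested. Without single libraries the calls of EnVL (P0 replicate 1, −2.07, adjusted p = 0.0753; W4 replicate 1, −1.82, 0.119), VSM (W4 replicate 1, 0.62, 0.0602), CapFb2a (W4 replicate 2, 0.87, 0.0510) and CapFb3 (W4 replicate 2, 1.11, 0.105) were lost.

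**Figure D5:**
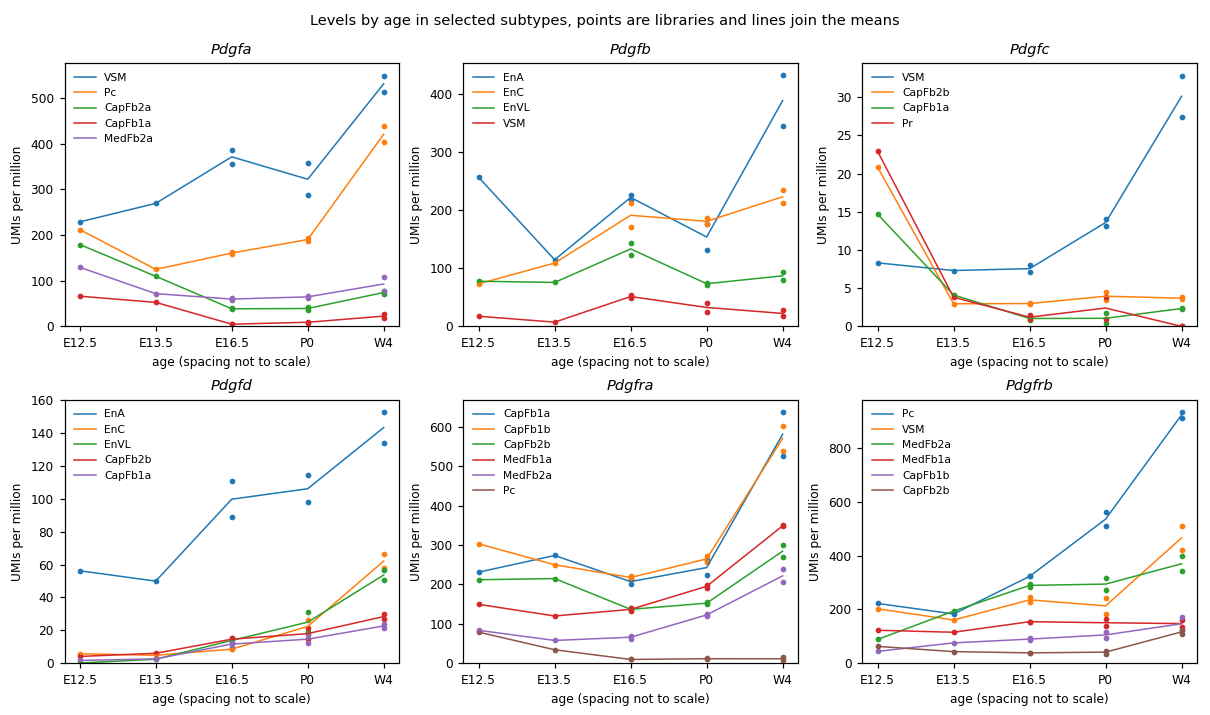
Levels in CPM by age for selected subtypes of the age series, with 1 point per library and lines through the means at each age, ages not spaced to scale. *Pdgfa* and *Pdgfrb* of Pc and VSM and *Pdgfra* of capsular fibroblasts are highest at W4. *Pdgfra* of the cells labelled Pc is highest at E12.5, in 1 library with 65 such cells.

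*Pdgfd* rose in 5 of 10 subtypes. EnC went from 26.1 and 18.5 CPM at P0 to 58 and 66.3 at W4 (1.43 ± 0.21, edgeR adjusted p = 0.0021), after 5.62 at E12.5 and 4.72 at E13.5, so that its level was lowest in the embryonic libraries. EnVL (31.1 and 18.7, then 50.6 and 56.7) passed with 1.03 ± 0.28 (edgeR adjusted p = 0.028), and so did CapFb1b (1.05), CapFb2a (1.46) and CapFb2b (0.75). By DESeq2 the calls of EnVL (adjusted p = 0.496), CapFb2a (0.181) and CapFb2b (0.194) did not hold. They were also lost with edgeR for EnVL without replicate 2 of P0 (adjusted p = 0.139), replicate 1 of W4 (0.0849) or replicate 2 of W4 (0.115), for CapFb2a without replicate 2 of W4 (0.492) and for CapFb2b without replicate 2 of P0 (0.0764) or of W4 (0.126).

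*Pdgfb* passed in 0 of 5 subtypes by edgeR, 1 of them with an unadjusted p under 0.05. EnC had 186 and 175.2 CPM at P0 and 234 and 212 at W4 (0.25, adjusted p = 0.219). In EnA, tested in the added fit alone, *Pdgfb* rose from 130 and 177 to 431 and 345 CPM (1.23 ± 0.21, edgeR adjusted p = 0.0024). Endothelium held 59.7% of the *Pdgfb* UMIs at P0 and 87.7% at W4, but its share of the captured cells went from 5.56% to 15.1%.

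*Pdgfc* rose in VSM, from 14 and 13.1 to 27.4 and 32.8 CPM (1.09 ± 0.19, edgeR adjusted p = 0.0060), and fell in Pc, from 3.88 and 3.0 to 0.423 and 1.09 CPM (−2.38 ± 0.70, 0.0209). Neither call held by DESeq2 (adjusted p = 0.175 and 0.148). Leaving out replicate 2 of W4 gave an adjusted p of 0.0539 for VSM, and leaving out replicate 1 of W4 one of 0.169 for Pc. The defining markers of the subtypes moved in the same interval: the fibroblast list went from 14823 and 12406 CPM to 28904 and 28468 in CapFb1a, and the pericyte list from 5126 and 5378 to 10570 and 10465 in Pc. Their part in the rise of the receptors was not tested.

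In the sorted populations 9 of 36 pairs of a member and a population differed between P0 and 4 weeks (8 higher and 1 lower), beside 9.86% of all pairs (6.05% higher and 3.81% lower). Of the 9, 3 were genes of cTEC near the detection limit, the lower one among them, and 6 remain without these. *Pdgfa* made up 4 of these, 1 in each nonepithelial population. In gp38+CD26+ it rose from 0.118, 1.38 and 3.13 to 7.60, 15.0 and 21.9 CPM (lowest, median and highest; log2 change 3.53 ± 0.39, edgeR adjusted p = 1.2e-10), and in gp38+CD26- from 5.82, 10.3 and 12.8 to 25.5, 39.8 and 52.8 (2.17 ± 0.35, 2.3e-06). In Ly51+gp38- the P0 libraries reached 139.2 CPM and those of 4 weeks began at 222 (1.57 ± 0.34, edgeR adjusted p = 8.9e-04). In these populations the ages did not overlap. Markers of other cells moved in the same sorts. In gp38+CD26+ the 4 mesothelium markers summed to a median of 57.9 CPM at P0 (0 to 386) and 4193 at 4 weeks (504 to 5634), and the erythroid markers to 0.382 and 903, beside a mean *Pdgfa* level of 83.8 CPM in Mes of the age series. In gp38+CD26- the erythroid markers went from 0.133 to 985 CPM, and in Ly51+gp38- the vascular smooth muscle markers from 1719 to 6390 and the pericyte markers as given above. Their part in these rises was not tested. In cTEC the change was 0.11 (adjusted p = 1.0) and in mTEC 0.56 (0.47), and a test of whether the age change differed between populations passed for *Pdgfa* (edgeR adjusted p = 2.38e-06), *Pdgfb* and *Pdgfd*, 3 of the 6 members, beside 21.2% of all genes. *Pdgfb* was at 0 in the gp38+ populations, and its largest age change in that test was that of cTEC, where its counts were near the detection limit. The call of *Pdgfd* was lost without the filter on low counts (edgeR adjusted p = 0.0571).

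In CD31+ *Pdgfa* rose from 0.426, 5.65 and 12.2 to 14.6, 16.8 and 29.3 CPM (1.84 ± 0.35, edgeR adjusted p = 1.1e-04). The pericyte markers in the same sort went from 47.6, 130 and 193 to 561, 1171 and 1789 CPM, the median of the vascular smooth muscle markers from 5.37 to 80.6 and that of the erythroid markers from 26.3 to 1334, and their part in this rise was not tested. With the CD31+ libraries of both ages alone in the fit, the change was of like size but did not pass (1.82 ± 0.66, edgeR adjusted p = 0.148).

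In bulk, neither receptor passed the test for a rise in the mesenchymal populations. In Ly51+gp38- *Pdgfrb* changed by −0.35 (adjusted p = 1.0), and in gp38+CD26+ *Pdgfra* by −0.50 (1.0), with 724 to 1405 CPM at P0 and 501 to 830 at 4 weeks. With the libraries of 1 population alone in the edgeR fit, the falls were of like size with smaller errors. *Pdgfrb* in Ly51+gp38- changed by −0.41 ± 0.17 (edgeR adjusted p = 0.163) and *Pdgfra* in gp38+CD26+ by −0.56 ± 0.18 (0.0641), the latter close to the threshold. The fibroblast markers of gp38+CD26+ had medians of 46667 and 49803 CPM. The bulk and single-cell changes were not tested against each other.

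*Pdgfd* rose in Ly51+gp38-, from 0, 4.82 and 24.5 to 14.4, 33.9 and 62.4 CPM (2.58 ± 0.79, edgeR adjusted p = 0.0225), and in cTEC, from 1.21, 3.29 and 13.1 to 13, 37.5 and 67.6 (2.93 ± 0.80, 0.00995). The endothelium markers in Ly51+gp38- went from a median of 3.89 to 38.1 CPM, and their part was not tested. In CD31+ the change was 1.31 (adjusted p = 0.32). With the libraries of 1 population alone in the edgeR fit, *Pdgfd* was lost in Ly51+gp38- (2.51, adjusted p = 0.0891), was kept in cTEC (2.88, 0.00178) and passed in CD31+ (1.29, 0.0129) and gp38+CD26+ (1.03, 0.0200). *Pdgfc* in cTEC also passed there (−1.34, edgeR adjusted p = 0.0105), against −1.30 and an adjusted p of 0.75 in the shared fit. cTEC differed in 3 further genes, all near the detection limit, which were tested there only because other populations brought them past the filter on low counts. In the fit of the cTEC libraries alone these 3 genes did not pass that filter and have no test. *Pdgfb* had 0, 3.41 and 6.38 CPM at P0 and no count in 6 of 6 libraries at 4 weeks (mean at least 82.8-fold higher at P0). *Pdgfra* had no count at P0 and 0, 0.938 and 5.21 CPM at 4 weeks, where 3 of 6 libraries were at 0. Its mean at 4 weeks was at least 39.5-fold higher. *Pdgfrb* went from 0.531 ± 1.12 to 6.98 ± 6.69 CPM (3.73 ± 1.02, edgeR adjusted p = 0.00986). In the same cTEC libraries the fibroblast markers rose from a median of 280 to 863 CPM, the pericyte markers from 69.3 to 226, the mesothelium markers from 2.52 to 344 and the haematopoietic markers from 12.1 to 575, and their part was not tested. In each group, the titles of 3 libraries carry TXCK and those of 3 carry DFCK, which the labels do not explain. When each prefix was fitted alone 4 of 36 pairs passed in TXCK and 4 in DFCK, and *Pdgfa* in CD31+ (1.49 and 2.38) and gp38+CD26+ (3.73 and 3.03) passed in both. *Pdgfrb* in CD31+, at 0.36 in the fit of all libraries, passed with DFCK alone (7.20, edgeR adjusted p = 0.0059) and was −1.03 with TXCK alone.

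Between newborn mice labelled *Tbx1*+/- *Crkl*+/- and WT, 0 of 47 pairs of a member and a subtype passed by edgeR or DESeq2, where 0.0481% of all pairs did by edgeR. An unadjusted p under 0.05 was found for 6 pairs with each tool, where 6.72% of all pairs by edgeR and 3.74% by DESeq2 had one. For *Pdgfra* in fibroblasts, CapFb1a had 456, 486 and 375 CPM in WT and 618, 574 and 592 in the labelled libraries (log2 difference 0.45 ± 0.25, edgeR adjusted p = 0.67). In CapFb2b, WT had 274, 263 and 224 CPM and the labelled libraries 394, 352 and 471 (0.72 ± 0.29, 0.74). The groups did not overlap in these subtypes or in CapFb1b, CapFb1c, MedFb2a and Pr, yet none of these differences passed. CapFb4 and MedFb1b, the other fibroblast subtypes tested for *Pdgfra*, are not among them. The share of all gene and subtype pairs without overlap was not counted, so this lack of overlap is a description only. In EnC *Pdgfra* differed the other way (−0.88, edgeR adjusted p = 1.0), with overlap. The subtypes share the same 6 libraries.

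Of the 6 pairs with an unadjusted p under 0.05 by edgeR, the lowest belonged to *Pdgfrb* in ItTEC, with 63.0, 30.6 and 53.1 CPM in WT and 59.4, 140 and 172.5 in the labelled libraries (1.54 ± 0.39, edgeR adjusted p = 0.69). PcTEC had 31.2, 17.9 and 9.47 against 24.0, 61.5 and 52.4 CPM. In the same libraries the pericyte markers summed to 359, 352 and 253 CPM in ItTEC of WT and 204, 676 and 453 in the labelled libraries, the same pair of libraries being high in both measures, and *Pdgfrb* in Thy stood at 100.9, 91.3 and 88.6 against 174, 117 and 133.9. The part of pericyte transcripts was not tested. In Pc itself *Pdgfrb* was 1302, 1251 and 1308 CPM in the labelled libraries (0.09 ± 0.24).

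Other genes of the pathway were counted from a list of 37. Of the 5 early response genes that growth factors and many other stimuli induce, *Egr1*, *Fos*, *Junb*, *Ier2* and *Myc*, 67 of 84 pairs with a subtype fell from P0 to W4 and 3 rose, in the added fit in which 30.3% of all pairs passed (15.3% higher and 15% lower). In Pc, *Ier2* fell by 3.42 and *Egr1* by 3.03 on the log2 scale. The same genes fell in 22 of 30 pairs in bulk, where 3.81% of all pairs were lower, *Egr1* in cTEC by 3.29. Age cannot be told apart here from the bead step described for adult mice, and the part of PDGF signalling was not tested. Genes that activate the latent ligands moved the other way in single cells: of 64 pairs 34 rose and 1 fell, and *Plau*, the urokinase gene, rose by 2.74 ± 0.36 in CapFb1a (edgeR adjusted p = 3.9e-05). In bulk, 2 of 30 pairs of this group rose and 1 fell, near the shares of all pairs (6.05% higher and 3.81% lower).

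Among co-receptors 16 of 32 pairs rose and 5 fell, with *Lrp1*, which encodes a lipoprotein receptor that binds PDGFRB, higher in CapFb1a by 1.65 ± 0.11 and lower in Pc by −0.96 ± 0.12. Of the binding partners of the activated receptors 44 of 266 pairs rose and 18 fell, with the rises near the 15.3% of all pairs in this fit. Of the genes for receptor removal and dephosphorylation 18 of 79 rose and 16 fell, the feedback inhibitor *Socs3* falling by 2.64 in Pc. Of the related receptors 8 of 22 pairs rose and 4 fell, *Pdgfrl* rising by 1.70 ± 0.20 in CapFb1b and falling by 2.54 in VSM, and in bulk 0 of 24 rose and 3 fell. Between the newborn genotypes no gene of the list passed by edgeR.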

How the data were processed

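Single-cell RNA was counted per gene and cell with the Chromium 3′ kit. The authors processed these reads with Cell Ranger 3.1.0, removed cells with few genes, many mitochondrial transcripts or doublet profiles, labelled each cell with a subtype, and deposited whole UMI counts without normalization. For bulk RNA, the authors deposited a table of raw counts, 1 row per Ensembl gene, with the summary entries of HTSeq. The submitters' processing notes name STAR 2.5.3a, mm10 and GRCh38. Summary entries that name no gene held 7.81 to 29.4% of the bulk counts and were left out. No cells were filtered further and doublets were not called again.

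UMIs were summed per subtype and library, and the libraries were the replicates. Counts were tested with edgeR 4.0.16 in R 4.3.3 (filterByExpr, TMM, quasi-likelihood F test), with Benjamini-Hochberg adjustment within each comparison and a threshold of 0.05. All bulk groups shared 1 fit, as did all ages of a subtype. Subtypes with under 20 cells in any library, and the bulk library with under 1000000 counts, were left out. DESeq2 1.42.0, other scaling, no filter, other cell minimums, each label prefix, left-out libraries and a replicate block were alternatives. Genes were named by Ensembl ID, and symbols came from the GENCODE annotation of GRCm38, which matched 37607 of 39179 IDs. Exon lengths are the union of all exons of a gene.

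The members, marker lists and pathway list were chosen with earlier results of these data known. The text names the 6 members, up to 4 pathway genes per list and comparison (those with the largest called change), the 3 genes most like each member in bulk, and *Tbx1* and *Crkl*. The tests were checked on simulated counts. Counting depth limits levels of a few CPM, and the floors given for 0 counts (3 counts) cover counting error only.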

Additional observations from a re-analysis of the deposited data

Results flagged for a closer look

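In 13 of 84 sets, each of 1 member gene in 1 of the 14 bulk groups, 1 library stood apart from the others. Chance gives about 1 in 20 where values are normally distributed, which need not hold for sets with most libraries at 0. *Pdgfrb* was 34.8 CPM in replicate 1 of CD31+ at P0, beside 0 to 11.9 in the others, and 2.80 CPM in replicate 2 of cTEC at P0, beside 0 to 0.387. *Pdgfra* was 1.72 CPM in replicate 1 of CD31+ at P0 and 10.1 CPM in replicate 2 of CD31+ at 4 weeks, with 0 in the others of each group. It was 8.39 CPM in replicate 6 of mTEC at 4 weeks, beside 0 to 0.337, and 8.48 CPM in replicate 4 of mTEClo, beside 0 to 0.906. *Pdgfd* was 230.3 CPM in replicate 1 of CD31+ at P0, beside 72.3 to 126, and 24.5 CPM in replicate 3 of Ly51+gp38- at P0, beside 0 to 8.87.

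*Pdgfb* was 9.86 CPM in replicate 1 of CD31+ at 4 weeks, beside 43.2 to 61.8. *Pdgfc* was 14.5 CPM in replicate 4 of CD31+ at P0, beside 0 to 3.24, and 8.59 CPM in replicate 5 of CD31+ at 4 weeks, with 0 in the others. It was 24.7 CPM in replicate 3 of mTEC at 4 weeks, beside 0 to 5.74, and 4.53 CPM in replicate 1 of mTEClo, beside 0 to 0.174. Replicate 1 of CD31+ at P0 was the highest of its group for *Pdgfd*, *Pdgfra* and *Pdgfrb* and the lowest for *Pdgfb*, with 0.0821 CPM. Its fibroblast markers summed to 75.4 CPM, beside 0.110 to 59.4 in the other libraries of the group. Its pericyte markers summed to 47.6, the lowest of the group, beside 93.2 to 192.6 in the others.

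The change from P0 to 4 weeks differed between bulk populations for *Pdgfa* (edgeR adjusted p = 2.38e-06), *Pdgfb* (0.0242) and *Pdgfd* (0.0459). In the single-cell fit of E16.5, P0 and W4, *Pdgfa* was higher at W4 in 12 subtypes and lower in 1, EnVL. In the same fit *Pdgfc* was higher in 2 subtypes, CapFb4 and VSM, and lower in 2, MedFb2a and Pc. For these genes the difference between subtypes was not tested.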

How the results depend on the processing

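No difference that passed the test in the reported fits changed its direction in the alternatives tried, whereas differences that had not passed changed sign in several of them. Of these, *Pdgfd* in VSM from P0 to W4 passed with the other sign, at 1.54 without P0 replicate 1 (edgeR adjusted p = 0.0394) against −0.21. Between P0 and 4 weeks in bulk, 9 of 36 pairs passed in the reported fit, 4 with the TXCK libraries alone and 4 with the DFCK libraries alone. Between bulk populations 36 of 66 pairs passed, and 23 with DFCK alone. For the age change by population, 3 of 6 members passed, 1 of them (*Pdgfa*) with TXCK alone and none of them with DFCK alone, where 1 other member (*Pdgfrb*, edgeR adjusted p = 0.0188) passed. Without a filter on low counts *Pdgfd* lost this call (0.0571). The fits of 1 prefix alone have 3 libraries per group, whereas the fit without a filter uses all libraries kept. Over all ages of the age series 52 of 57 pairs passed, and 32 of the 36 pairs left with at least 50 cells. From P0 to W4, 29 of 57 passed, 19 of 36 with at least 50 cells and, in the fit of the 3 later ages chosen after seeing the data, 47 of 77. For the newborn genotypes 0 of 47 passed, and 2 without a filter on low counts, both for *Pdgfrb* (ItTEC and PcTEC). Leaving out 1 library at a time gave 23 to 31 called pairs from P0 to W4, 48 to 53 over all ages and 0 for the genotypes. Leaving out 1 library of gp38+CD26+ at 4 weeks gave 9 for the bulk ages, 35 to 36 for the populations and 3 for the age change by population.

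Replicate numbers in the labels were checked as a pairing in the single-cell sets only. The deviations of same-numbered libraries correlated by −0.214, −0.327 and 0.0739 in the age series and by 0.296, −0.0606 and −0.695 in the newborn set. With 2 libraries per age the deviations mirror each other, so this check cannot exclude a pairing. Newborn libraries of unlike number correlated by −0.73 to 0.791. With the replicate block 53 of 57 pairs passed over all ages, 30 of 57 from P0 to W4 and 0 of 47 for the genotypes, and with the P0 numbers crossed, a pairing chosen after seeing the data, 52 and 29. DESeq2 lost 5 of the 29 calls from P0 to W4. The subtype with the highest level of a gene stayed the same in 10 of 12 cases (6 genes in each of the 2 single-cell sets) with at least 20 cells per library, and in 8 of 12 by thinned shares of cells. Levels of a few CPM, such as many of those of *Pdgfc*, rest on few UMIs, and their depth limits what can be told apart.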

Other observations

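Over the means of the 14 bulk groups, the patterns of the members were matched most closely by these genes among 11873 with a mean of at least 5 CPM, by Pearson's r of log2(CPM + 1), given as a description. *Pdgfa* was followed most closely by *Myh11* (r = 0.912), which encodes smooth muscle myosin, *Dstn* (0.904) and *Eml2* (0.885). *Pdgfb* was followed by *Timp4* (0.925), *Lnx2* (0.905) and *Lyn* (0.898), and *Pdgfc* by *Ermard* (0.853), *Diablo* (0.832) and *D6Wsu163e* (0.831). *Pdgfd* was followed by *Npr1* (0.906), the receptor of natriuretic peptides, and by the fibulin genes *Fbln2* (0.894) and *Fbln5* (0.889). *Pdgfra* was followed by *Abca8a* (0.986), *Col6a6* (0.981) and *Gpr153* (0.980), and *Pdgfrb* by *Ndufa4l2* (0.962), *Pla2r1* (0.957) and *Gucy1b1* (0.948). The 14 points share animals, depth and sorts to an unknown degree.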
